A study of Mus musculus with 48 samples.

Results

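Neurog3, Neurod1 and Neurod2 are 3 of the 18194 mouse genes with an array probe of their own, and they encode related basic helix-loop-helix (bHLH) transcription factors. They were chosen by name. Each gene was read from its brightest probe by average level across all 48 arrays, among those whose annotation names that gene alone. Such probes numbered 7 for the 3 genes, and 6 of them rose above 100 on the linear scale, a log2 value of 6.64, in at least 1 array. The brightest probe of each gene was among the 6.

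The study sorted cells from the mouse pancreas by reporters and surface markers and profiled them on Affymetrix whole-genome mouse arrays, with 3 to 5 arrays for each of 13 populations. The labels give CD-1 as the strain background of every sample, and 12 populations were wild type with 44 arrays in all. E11 progenitors (n = 4) were Sox9-eGFP+ cells of the dorsal pancreas, marked by a Sox9-eGFP BAC transgene and pooled from many embryos. E15 progenitors (n = 3), E15 acinar cells (n = 3) and E15 endocrine progenitors (n = 3) came from pancreata with a Neurog3-eGFP transgene and were separated with the surface markers CD133, CD24 and CD49f. Neurog3-null cells (n = 4) were GFP+ cells from E15 embryos homozygous for a Neurog3 knock-in reporter, Neurog3 eGFP/eGFP. Beta cells carried a GFP driven by the Mouse Insulin Promoter and came from adults (n = 4), from P15 (n = 4) and P1 pups (n = 3), and from embryos at E17 (n = 3) and E15 (n = 4). Alpha cells carried Glucagon-Venus and were taken at P1 (n = 4) and in adults (n = 5). Adult duct cells (n = 4) were sorted by CD133. Adult mice were 8 to 12 weeks old. The P15 and adult arrays each held cells of several male mice, and the fetal arrays held pools of embryos. The stage names follow the article: the labels write the embryonic stages as E11.5, E15.5 and E17.5 and P1 as P0, and the titles of the null samples name a different stage from their stage label, which is the one used. Neurog3 reporter activity was itself part of the sort of endocrine progenitors, so a high Neurog3 level there was selected for. The reporter proteins of these mice can outlast the genes that drive them, and in these bulk samples fewer cells of a type and less RNA per cell cannot be told apart.

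Neurog3 switches on in scattered cells of the fetal pancreatic epithelium and commits them to the endocrine fate, and mice without it form no islet cells. Its protein pairs with an E protein and binds a short DNA motif, the E-box, in genes of further transcription factors, NeuroD1 among them. Neurog3 is transient, whereas NeuroD1 stays on in islet cells and takes part in insulin gene transcription. NeuroD2 is a close relative of NeuroD1 best known from neurons. Notch signals, through Hes and Hey repressors, and Id proteins, which trap E proteins, oppose bHLH activators.

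The sequence before each of the 3 transcription starts is shown because bHLH dimers bind E-boxes and the 3 genes are read below side by side. The stretches hold 250 bases each, from RefSeq annotation of GRCm38.p6, and the capitals mark E-boxes, searched as CANNTG, which reads the same on both strands. The Neurog3 stretch is chr10:62132840-62133089 on the plus strand, just before the gene at chr10:62133090-62134763. The Neurod1 stretch is chr2:79456637-79456886 on the minus strand, before the gene at chr2:79452637-79456636, and the Neurod2 stretch chr11:98329646-98329895 on the minus strand, before the gene at chr11:98325415-98329645.
Neurog3: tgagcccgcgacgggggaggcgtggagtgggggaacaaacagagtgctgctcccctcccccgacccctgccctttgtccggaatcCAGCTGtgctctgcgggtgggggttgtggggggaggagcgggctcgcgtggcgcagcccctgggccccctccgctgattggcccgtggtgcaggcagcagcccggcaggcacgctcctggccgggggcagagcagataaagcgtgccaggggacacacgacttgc
Neurod1: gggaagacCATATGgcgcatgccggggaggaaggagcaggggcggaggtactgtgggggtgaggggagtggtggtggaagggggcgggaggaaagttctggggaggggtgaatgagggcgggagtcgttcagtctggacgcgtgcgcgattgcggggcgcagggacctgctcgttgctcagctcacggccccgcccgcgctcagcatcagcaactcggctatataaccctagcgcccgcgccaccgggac
Neurod2: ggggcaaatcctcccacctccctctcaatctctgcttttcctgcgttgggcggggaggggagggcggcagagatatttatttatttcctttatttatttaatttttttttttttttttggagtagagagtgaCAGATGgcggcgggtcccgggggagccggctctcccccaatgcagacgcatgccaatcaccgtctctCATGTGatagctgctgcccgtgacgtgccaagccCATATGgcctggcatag
Neurog3 held 1 E-box, which began 165 bases before the transcription start, and Neurod1 held 1, at 242 bases. Neurod2 held 3, at 118, 51 and 17 bases. Of 32851 windows of this length in the same annotation, 66.2% held at least 1 E-box and 12.2% held at least 3. A match is a description of the letters and does not show a bound site.

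Values below are log2 expression values as deposited, differences are the second population minus the first, and ± is the SD over arrays. A difference was called when its Benjamini-Hochberg adjusted p from limma, over 32078 probes, was under 0.05 and it was at least 2-fold. The mean of 10 acinar markers was highest in acinar arrays (13.20 to 13.33) and that of 7 duct markers in duct arrays (11.97 to 12.28). Sox9 had a mean of 12.51 in E11 and 12.56 in E15 progenitors. Arrays of several populations also carried markers of other cells. Acinar markers averaged 12.06 to 12.84 in adult duct arrays. The mean of 6 islet hormone genes lay at 10.55 to 10.76 in E11 progenitor arrays and at 12.43 to 12.49 in endocrine progenitor arrays. The mean level of 15 macrophage and leukocyte markers lay between 11.28 and 12.49 in every array of Neurog3-null cells, adult beta cells and adult duct cells and between 5.15 and 10.37 in every other array. The mean of 11 mesenchyme markers lay between 11.11 and 12.85 in the arrays of P1 alpha, P1 beta and E17 beta cells and between 5.84 and 10.96 elsewhere. The mean of 11 endothelium markers lay between 8.62 and 11.12 in those arrays and in acinar arrays and between 4.92 and 8.04 elsewhere. The hormone genes did not separate the islet sorts: population means of Ins2 were 14.29 to 14.65 in beta cells and 13.91 to 14.46 in alpha cells, and those of Gcg were 13.75 to 14.09 in beta cells and 14.28 to 14.48 in alpha cells. Probes of such abundant mRNAs can saturate, so these values do not show that the sorts held equal amounts.

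Neurog3, the factor that starts the endocrine program, was highest in endocrine progenitors. Its 3 arrays there read 13.34, 13.41 and 13.44. E15 progenitors read 11.64, 11.43 and 11.98, E15 acinar cells 8.14, 7.42 and 7.82, and the 4 arrays of E11 progenitors 9.35, 9.19, 9.28 and 9.34. These 4 fetal populations did not overlap with each other. The Neurog3-null cells, the knockout of the series, read 10.97, 10.29, 10.70 and 10.32, below every endocrine progenitor and E15 progenitor array and above every acinar array.

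The second probe of Neurog3 (1422312_a_at) ranked the wild-type populations much as the brighter one (1432034_at) did but placed the null cells elsewhere. It read 5.09, 5.68, 5.59 and 5.56 in the null cells. It read 11.66, 11.64 and 11.39 in endocrine progenitors, 8.69, 8.55 and 9.34 in E15 progenitors, and 6.32, 5.89 and 6.04 in acinar cells. By this probe the null cells lay below all 3 of these wild-type populations with no overlap. From endocrine progenitors to null cells Neurog3 differed by -2.83 by the brighter probe (SE 0.35, adjusted p = 9.8e-09) and by -6.08 by the second (adjusted p = 2.4e-21). From acinar to null cells it differed by 2.78 by the brighter probe (adjusted p = 3.2e-08) and by -0.61 by the second (adjusted p = 0.06). Over the 13 population means the 2 probes correlated at r = 0.78, and over the 12 wild-type means at r = 0.87. The sources used here do not say where these probes lie relative to the altered part of the gene, so neither probe alone checks the null label.

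**Figure D1:**
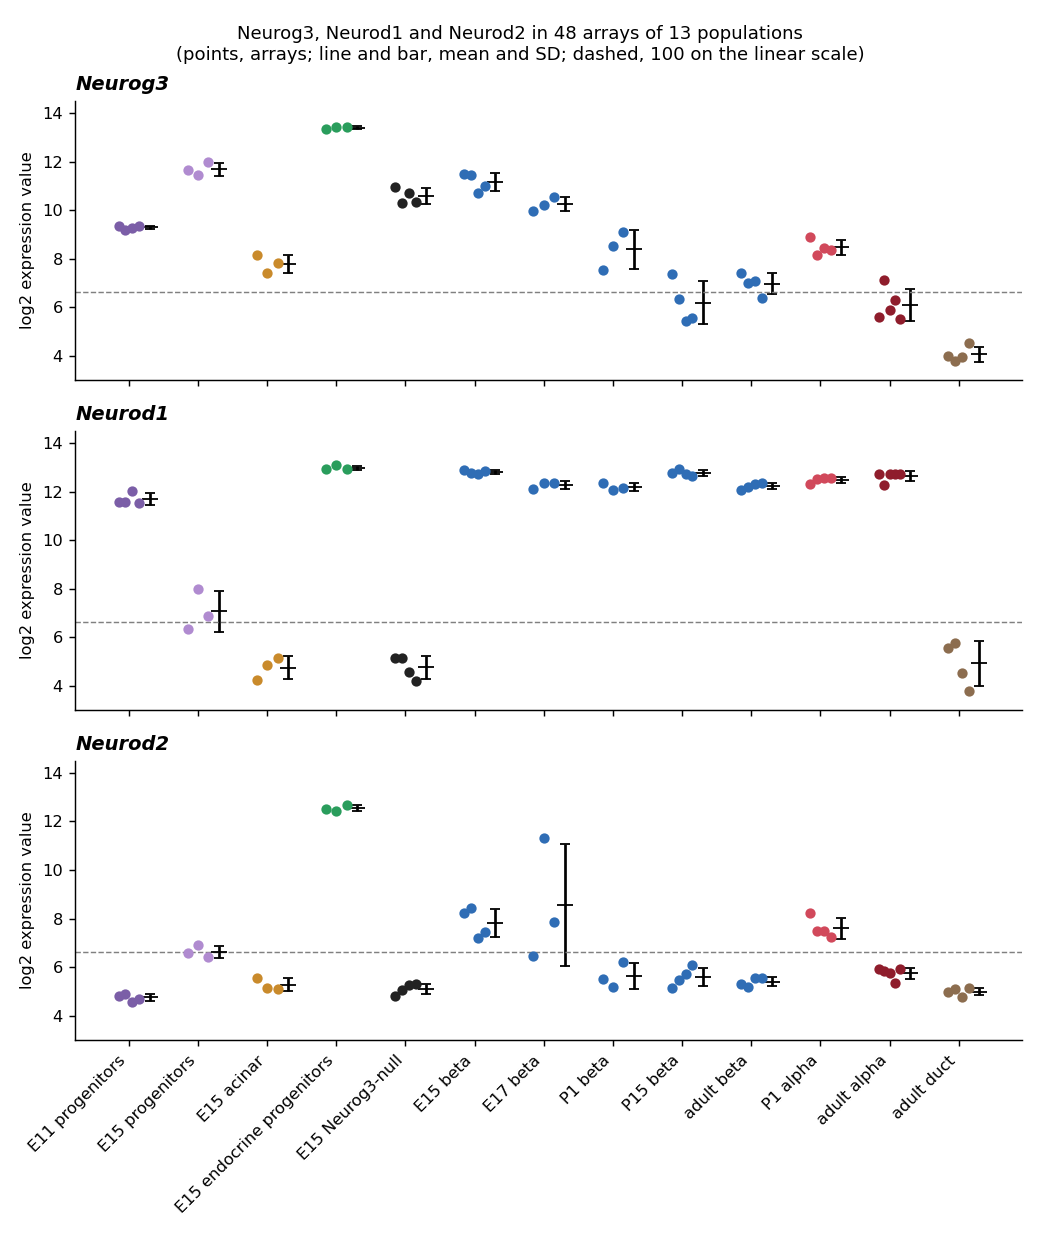
Log2 expression value of each gene's brightest probe in each of the 48 arrays, by population, with the mean and SD beside the points and the filter level dashed. Neurog3 and Neurod2 peak in E15 endocrine progenitors, at 13.40 and 12.55, and Neurod1 is between 11.52 and 13.07 in every array of E11 progenitors, endocrine progenitors, beta cells and alpha cells.

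**Figure D2:**
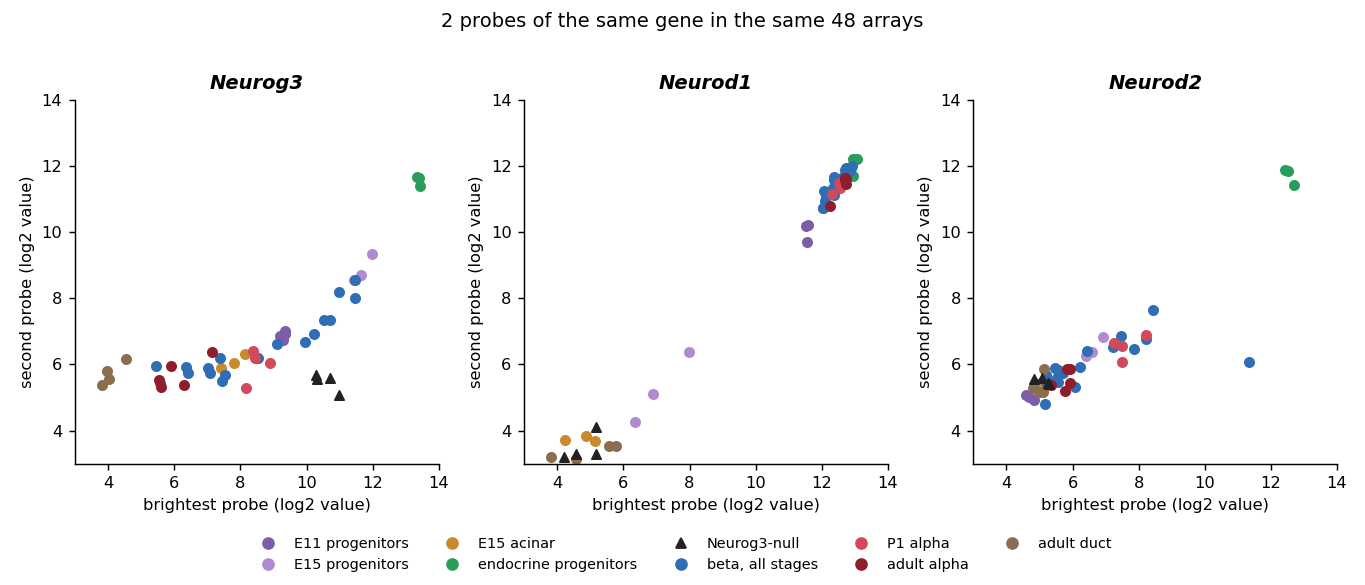
The brightest probe of each gene (horizontal) against its second probe (vertical), both as log2 values, 1 point per array and 1 colour per kind of population. The 4 Neurog3-null arrays (triangles) stand off the Neurog3 cloud, at 10.29 to 10.97 on the horizontal axis and 5.09 to 5.68 on the vertical, and 1 E17 beta array stands off the Neurod2 cloud at 11.33.

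In beta cells Neurog3 was lower at each stage up to P15. E15 beta cells read 11.48, 11.46, 10.72 and 10.98, and E17 beta cells 9.96, 10.23 and 10.54. P1 beta cells spread widely, at 7.54, 8.53 and 9.12. P15 beta cells read 7.37, 6.36, 5.46 and 5.57, and adult beta cells 7.43, 7.01, 7.09 and 6.41, and 4 of these 8 arrays lay under the filter level. The E15, E17 and P1 arrays did not overlap with one another, whereas the P15 and adult arrays did.

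Neurog3 fell by 2.24 from endocrine progenitors to E15 beta cells (SE 0.35, adjusted p = 5.1e-06), a comparison in which 4.57% of 14405 genes were called lower. It differed by -0.92 from E15 to E17 (adjusted p = 0.053), where 1.74% of genes were called lower and 9.21% higher and none of the 3 genes was called by its brighter probe. By the second probe this step of Neurog3 was called, at -1.03 (adjusted p = 0.0038). It fell by 1.85 from E17 to P1 (adjusted p = 8.3e-04, 1.65% of genes called lower) and by 2.21 from P1 to P15 (adjusted p = 1.7e-06, 18.3% of genes called lower). From P15 to adult the difference of 0.80 was not called (adjusted p = 0.087, 9.71% of genes called). Set as groups, the E15, E17 and P1 beta cells had a mean of 9.93 and the P15 and adult beta cells 6.59, a difference of -3.35 (SE 0.22, adjusted p = 3.3e-16, 10 arrays against 8 without overlap). In that comparison 14.8% of genes were called lower. The second probe gave -1.25 for these groups (adjusted p = 2.5e-08), but -0.82 and -0.28 for the steps from E17 to P1 and from P1 to P15, neither of them called. By the methods' t-test with Benjamini-Hochberg adjustment, on the brighter probe, neither of these 2 steps was called either (adjusted p = 0.15 and 0.054). With array weights the step from P15 to adult was called, at 1.20. The second probe's beta and alpha arrays from P1 on lay between 5.30 and 6.61, below the filter level.

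Alpha cells showed the same order of stages. P1 alpha cells read 8.90, 8.17, 8.45 and 8.37 and adult alpha cells 5.59, 7.13, 5.90, 6.29 and 5.53, with no overlap. The difference from P1 to adult was -2.38 (SE 0.31, adjusted p = 2.9e-08), in a comparison where 15.7% of genes were called lower, and the second probe gave -0.28 (adjusted p = 0.32). The change from P1 to adult in alpha cells minus that in beta cells was -0.97 and was not called (95% interval -1.91 to -0.03, adjusted p = 0.1, 23.4% of genes called), but was without P1 beta replicate 3 (-1.34) or adult alpha replicate 2 (-1.23). P1 alpha and P1 beta cells differed by 0.08 (95% interval -0.63 to 0.78, adjusted p = 0.88). Markers of other cells moved with these postnatal falls. All 11 mesenchyme and all 11 endothelium markers were lower in P15 than in P1 beta cells (medians -6.34 and -4.85) and in adult than in P1 alpha cells (medians -5.46 and -3.69), and so were 13 and 10 of the 15 macrophage and leukocyte markers. Such markers rose in other beta steps. From E15 to E17 all 11 endothelium (median 3.71), 8 of 11 mesenchyme and 10 of 15 macrophage and leukocyte markers were called higher, against 9.21% of all genes. From P15 to adult 14 of 15 macrophage and leukocyte (median 4.13) and 7 of 11 mesenchyme markers were called higher. The 11 endothelium markers were not called there, and 9.71% of all genes were called in either direction. The part of these other cells in the Neurog3 values was not tested.

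Adult duct cells had the lowest values, 4.02, 3.80, 3.95 and 4.53. From E15 progenitors to duct cells Neurog3 differed by -7.61 (adjusted p = 1.8e-20), Neurod1 by -2.15 (adjusted p = 8.9e-08) and Neurod2 by -1.63 (adjusted p = 0.0049), all 3 called, against 19.6% of genes called lower. Neurog3 in adult beta cells exceeded duct cells by 2.91 (adjusted p = 5.1e-10, 17.1% of genes called higher) and in adult alpha cells by 2.01 (adjusted p = 3.5e-07, 18.1% of genes called higher), but by the second probe these differences were -0.01 and -0.02. In the order of the 13 means, 8 of the 12 neighbouring pairs differed by more than the larger SD. The pairs that did not were P1 alpha and P1 beta (8.47 and 8.40), P1 beta and E15 acinar (8.40 and 7.79), adult beta and P15 beta (6.99 and 6.19), and P15 beta and adult alpha (6.19 and 6.09).

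Neurod1, a direct Neurog3 target that stays on in islet cells, was either high or near the bottom of its range. Endocrine progenitors read 12.93, 13.07 and 12.93. E15 progenitors read 6.34, 7.98 and 6.90, acinar cells 4.24, 4.88 and 5.14, and Neurog3-null cells 5.16, 5.16, 4.56 and 4.21. Endocrine progenitors stood above all of these arrays by more than 4 log2 units, and null and acinar arrays overlapped fully. The 6 tested islet hormone genes averaged 12.43 to 12.49 in the endocrine progenitor arrays. The part of hormone-expressing cells in their Neurod1 level was not tested.

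Neurod1 rose by 5.90 from E15 progenitors to endocrine progenitors (SE 0.32, 59.7-fold, adjusted p = 3.6e-18). Of all genes, 22.5% were called there. From endocrine progenitors to null cells Neurod1 differed by -8.20 (SE 0.30, 295.0-fold, adjusted p = 9.6e-24, 32.9% of genes called). From E15 progenitors to null cells it differed by -2.30 (adjusted p = 1.0e-07) and Neurod2 by -1.52 (adjusted p = 0.013). Both were called, where 7.80% of genes were called lower. Neurog3, the gene altered in the null cells, was called lower there too (-1.11, adjusted p = 0.01). Neurog3 was not called there without E15 progenitor replicate 3 (-0.96), nor Neurod2 without E15 progenitor replicate 2 (-1.38) or by its second probe (-0.98). Null and acinar cells differed by 0.02 in Neurod1 (95% interval -0.59 to 0.63, adjusted p = 0.97) and by -0.17 in Neurod2 (95% interval -1.17 to 0.84), so that Neurog3 alone was called there, by its brighter probe, against 22.3% of genes. The second Neurod1 probe followed the first over the 13 means at r = 1.00 to 2 decimals and gave -8.56 for endocrine progenitors to null cells.

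E11 progenitors were high in Neurod1 as well. Their arrays read 11.57, 11.56, 12.04 and 11.52, and the difference to E15 progenitors was -4.60 (SE 0.30, adjusted p = 1.9e-15, 13.6% of genes called). Neurog3 moved the opposite way between the same arrays, rising by 2.39 (SE 0.35, adjusted p = 1.0e-06), and Neurod2 rose by 1.87 (SE 0.50, adjusted p = 0.0041). Endocrine progenitors exceeded E11 progenitors for all 3 genes, by 4.11 for Neurog3, 1.31 for Neurod1 (adjusted p = 5.6e-04) and 7.79 for Neurod2, where 8.66% of genes were called higher. Against acinar cells, endocrine progenitors were higher by 5.61, 8.22 and 7.28 for Neurog3, Neurod1 and Neurod2, where 15.4% of genes were called higher. Islet hormone genes moved with Neurod1 here: 5 of the 6 tested were lower in E15 progenitors, among them Gcg (-5.40) and Iapp (-4.71), against 7.30% of all genes, and the mean of the 6 lay at 10.55 to 10.76 in the E11 arrays and at 7.06 to 7.84 in the E15 arrays. The part of hormone-expressing cells in the E11 Neurod1 level was not tested.

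Along the beta and alpha lineages Neurod1 varied little. Beta cells read 12.72 to 12.87 at E15, 12.09 to 12.37 at E17, 12.05 to 12.36 at P1, 12.64 to 12.92 at P15 and 12.07 to 12.36 in adults. Alpha cells read 12.30 to 12.56 at P1 and 12.25 to 12.74 in adults. None of the steps between these populations was called, though the arrays did not overlap from E15 to E17 beta cells or from P15 to adult beta cells. From endocrine progenitors to E15 beta cells the difference was -0.18 (95% interval -0.78 to 0.43, adjusted p = 0.74), and to P1 alpha cells -0.50 (95% interval -1.10 to 0.11, adjusted p = 0.18). In both comparisons the arrays of the brighter probe did not overlap. By the second probe the difference to P1 alpha cells was -0.69 (adjusted p = 0.039, under 2-fold). In P1 alpha cells Neurog3 and Neurod2 were called lower than in endocrine progenitors, at -4.93 and -4.94, where 9.94% of genes were called lower. From P1 to P15 beta cells Neurod1 differed by 0.57 (95% interval -0.03 to 1.18, adjusted p = 0.11), with no overlap of arrays, and by the second probe 0.88 (adjusted p = 0.0078, under 2-fold). Between the fetal and postnatal beta groups the difference was 0.08 (95% interval -0.30 to 0.45, adjusted p = 0.74), which leaves room for less than a 2-fold change in either direction.

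Adult duct cells read 5.57, 5.79, 4.55 and 3.80 for Neurod1. Adult beta cells exceeded them by 7.30 (SE 0.28, adjusted p = 8.2e-24) and adult alpha cells by 7.70 (SE 0.26, adjusted p = 1.7e-25). In the order of the 13 means, 5 of 12 neighbouring pairs differed by more than the larger SD. The widest step was that between E11 and E15 progenitors, and the duct, null and acinar means (4.93, 4.77 and 4.75) did not differ beyond their spread.

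Neurod2, the relative of Neurod1 known from neurons, stood out in endocrine progenitors, at 12.53, 12.44 and 12.69. E15 progenitors read 6.58, 6.91 and 6.41, acinar cells 5.58, 5.15 and 5.10, null cells 4.82, 5.06, 5.26 and 5.30, and E11 progenitors 4.84, 4.92, 4.59 and 4.69. No array of any other population reached the endocrine progenitor range. The rise from E15 progenitors was 5.92 (SE 0.53, 60.6-fold, adjusted p = 8.1e-12) and the difference to null cells -7.44 (SE 0.50, adjusted p = 1.2e-15). The second Neurod2 probe (1418995_at) gave 5.23 and -6.21. Neurod1 and Neurod2 were thus both called lower in null cells than in endocrine progenitors, where 14.2% of all genes were called lower. Neurog3 was called lower too, but it is the gene altered in the null cells, and the sort of endocrine progenitors selected for it. The remaining Neurod2 probe (1444362_at) stayed between 3.64 and 4.48 in all 48 arrays and was not tested. Markers of neurons and glia, 8 in all, averaged 7.93 to 8.15 in endocrine progenitor arrays and 6.72 to 7.21 in E15 progenitor arrays. They averaged 5.56 to 5.89 in acinar and 5.84 to 6.19 in null arrays. The part of such cells, or of hormone-expressing cells, in these Neurod2 values was not tested.

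Neurod2 was much lower in beta cells. E15 beta cells read 8.22, 8.43, 7.22 and 7.46. E17 beta cells read 6.45, 11.33 and 7.86. By the second probe the same E17 arrays read 6.41, 6.07 and 6.48, so the high value of replicate 2 stood on the brighter probe alone. The difference from E15 to E17 was 0.71 (SE 0.50, adjusted p = 0.33), -0.68 without that array, and 1.76 and called without replicate 1. By the second probe it was -0.63 (adjusted p = 0.045, under 2-fold).

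From P1 on, beta cells stayed low in Neurod2. They read 5.52, 5.19 and 6.21 at P1, 5.17 to 6.08 at P15 and 5.19 to 5.56 in adults, and adult duct cells read 4.79 to 5.13. The difference from E17 to P1 was -2.90 (SE 0.53, adjusted p = 2.7e-04). It was not called with only those populations in the fit (adjusted p = 0.16) or by the methods' t-test (adjusted p = 0.32), and it was -1.51 without E17 replicate 2, and -0.59 and not called by the second probe. Between the fetal and postnatal beta groups it was -1.83 (SE 0.31, adjusted p = 3.1e-06), with overlapping arrays, and -0.83 by the second probe. P1 alpha cells, at 8.22, 7.48, 7.48 and 7.25, lay above every P1 beta array. They exceeded P1 beta cells by 1.97 (SE 0.50, adjusted p = 0.0013), where 6.39% of genes were called higher, and by 0.80 by the second probe (adjusted p = 0.0044, under 2-fold).

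Adult alpha cells read 5.92, 5.83, 5.77, 5.36 and 5.92 for Neurod2, below all P1 alpha arrays. The difference from P1 was -1.85 (SE 0.44, adjusted p = 5.1e-04), and -0.99 by the second probe (adjusted p = 9.4e-05, just under 2-fold). Adult beta and adult alpha cells differed by 0.35 (95% interval -0.53 to 1.24, adjusted p = 0.54), and none of the 3 genes was called there, against 17.6% of all genes. Neurog3 differed by -0.90 (adjusted p = 0.016, under 2-fold) and was called with array weights (-1.05) and without adult alpha replicate 2 (-1.16) or adult beta replicate 4 (-1.09). The change from P1 to adult differed between alpha and beta cells by -1.62 (95% interval -2.96 to -0.28, adjusted p = 0.054), past 2-fold but not past the threshold, and was called with array weights (-1.66), with only those populations in the fit (-1.62) and without P1 beta replicate 3 (-1.90). The 8 markers of neurons and glia averaged 8.49 to 8.89 in P1 alpha arrays, 8.89 to 9.21 in P1 beta arrays and 5.97 to 6.82 in adult alpha arrays, and their part in the Neurod2 values was not tested.

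Below the endocrine progenitors in the order of Neurod2 means, E17 beta (8.54 ± 2.51), E15 beta (7.83 ± 0.59) and P1 alpha cells (7.61 ± 0.42) did not differ from one another beyond the spread of neighbours. P1 alpha cells and the next in order, E15 progenitors (6.63 ± 0.26), did. From adult alpha cells (5.76) down to adult duct cells (5.00) no neighbouring pair did. The 2 ends of that run did not overlap in their arrays, though their difference of 0.76 was not called (adjusted p = 0.12). Over the 13 population means Neurod2 correlated with Neurog3 at r = 0.68 and with Neurod1 at r = 0.43, and Neurog3 with Neurod1 at r = 0.15. By Spearman's rho the order was reversed, with Neurod2 at 0.52 with Neurog3 and 0.71 with Neurod1, and Neurog3 with Neurod1 at 0.18. These values rest on the brightest probe of each gene and describe populations that share the same arrays and normalization.

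**Figure D3:**
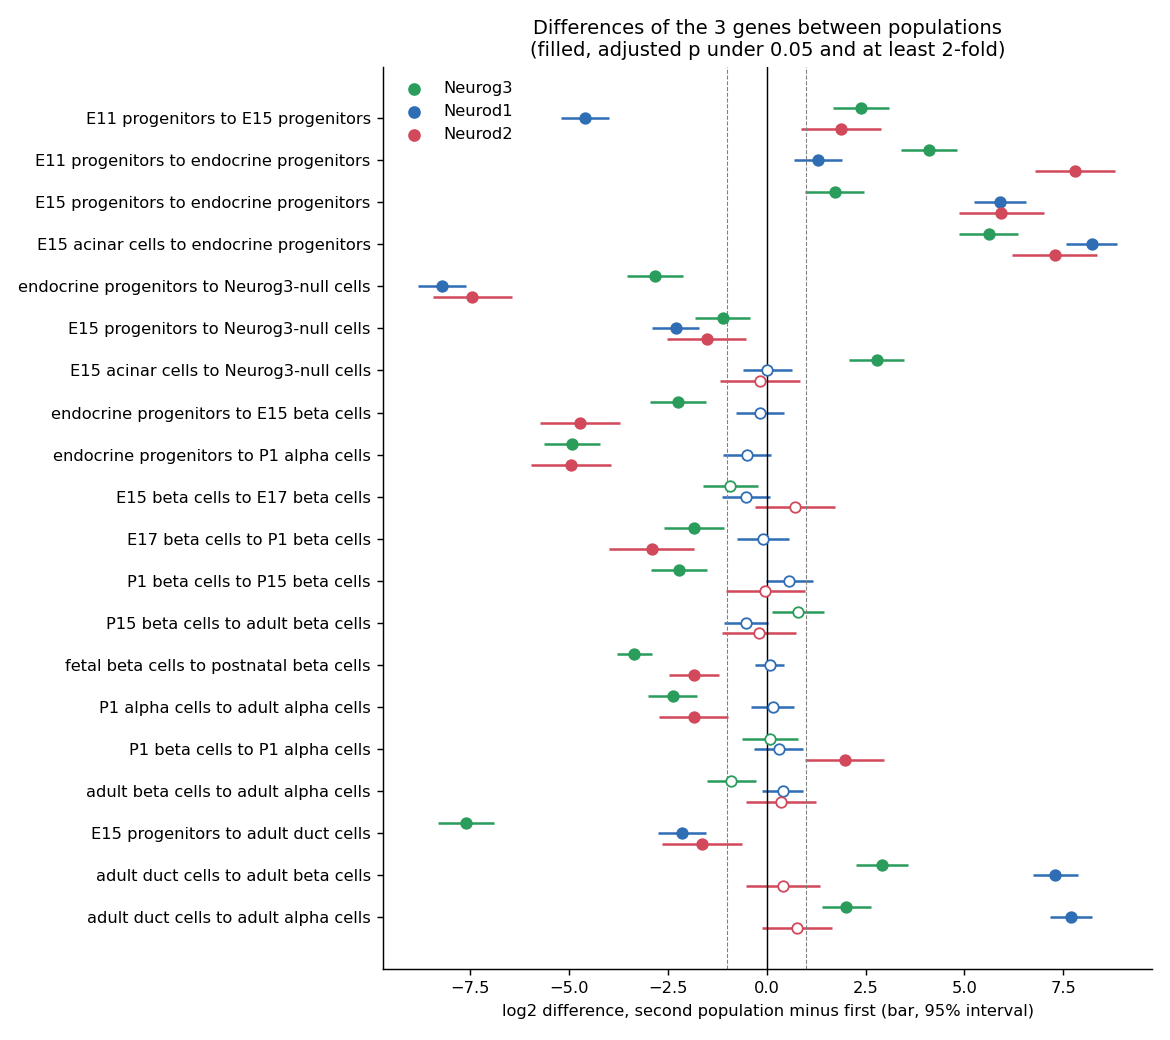
Log2 difference (horizontal) of Neurog3, Neurod1 and Neurod2 for 20 pairs of populations (rows), with its 95% interval, where filled points were called and dashed lines mark 2-fold. The Neurod1 differences lie near 0 along the beta and alpha lineages and at -8.20 from endocrine progenitors to null cells, and comparisons that name the same population share its arrays.

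Genes with a pattern most like each of the 3 were sought by Pearson's r over the 13 population means, among 14405 tested genes. The 6 nearest to Neurod1 were Isl1 (r = 0.998), Cadps (0.993), Pax6 (0.991), Gcg (0.990), Sphkap (0.989) and Baiap3 (0.988). Isl1 and Pax6 are islet transcription factors, Cadps acts in granule release and Gcg encodes glucagon. Mean Isl1 was 13.53 in endocrine progenitors and 5.68 in null cells. The 6 nearest to Neurod2 were Gsg1l (0.940), 4930447F24Rik (0.921), Slc35f3 (0.918), Cer1 (0.909), Rbfox3 (0.901) and Eya2 (0.900). All 6 had their highest mean in endocrine progenitors, but Neurod2 itself peaked there, so the measure favoured such genes. By Spearman's rho Gsg1l stood at 0.923 and the others between 0.659 and 0.753. The highest means of Gsg1l and 4930447F24Rik, 7.16 and 6.85, lay near the filter level. Rbfox3 encodes the neuronal nuclear antigen NeuN and read 9.87 there and 6.55 in null cells. Cer1, a secreted inhibitor of Nodal and BMP ligands, read 9.90 and 4.48. The 6 nearest to Neurog3 were Col9a2 (0.945), Ddb1 (0.918), Cacna1h (0.914), Ankra2 (0.912), Rcor2 (0.911) and Akap5 (0.887). Means in endocrine progenitors and null cells were 8.48 and 7.57 for Col9a2, a cartilage collagen chain, and 11.86 and 8.96 for Cacna1h, a T-type calcium channel subunit. These likenesses describe 13 means and carry no test.

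The endocrine factors listed as acting below Neurog3 moved with Neurod1 and Neurod2. The list was written with earlier results of these data known. It holds Runx1t1, which the article proposes as a Neurog3 target in part from these same arrays. The counts are therefore a description and no independent support. Of 12 tested, 11 were called higher in endocrine progenitors than in E15 progenitors, with a median difference of 4.26 against -0.03 over all genes and 10.7% of all genes called higher. St18 rose by 6.96, Pax6 by 6.34 and Isl1 by 5.58. Myt1, a zinc finger factor, rose by 4.40 and Pax4, which favours the beta fate, by 4.32. Snai2, a repressor of epithelial genes, was the exception at 0.67. All 6 tested islet hormone genes were called higher in the same comparison, with a median of 5.33. The part of hormone-expressing cells in the values of these factors was not tested.

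All of the 12 factors but Snai2 were called lower in null cells than in endocrine progenitors, against 14.2% of all genes. The median over the 12 was -5.56, against 0.10 over all genes. The log2 differences were -7.86 for Isl1, -7.41 for Pax6, -7.19 for St18, -7.06 for Myt1, -6.48 for Pax4 and -6.15 for Cck, a peptide hormone gene. Insm1, a zinc finger factor of endocrine cells, stood at -4.96, Nkx2-2 at -4.41 and Runx1t1 at -4.03. Rfx3, a factor of ciliated and islet cells, stood at -2.19, Cdkn1a, a cell cycle inhibitor, at -1.37 and Snai2 at -0.50. All 6 tested islet hormone genes were lower as well, with a median of -5.85. Both comparisons use the endocrine progenitor arrays. Of the 18 genes of the list, 6 had no probe of their own and were not analysed here.

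Against E15 progenitors the same null arrays were called lower for 6 of the 12 factors and higher for none, where 7.80% of all genes were called lower. The median was -1.01, against 0.08 over all genes. The differences were -2.97 for Insm1, -2.66 for Myt1, -2.54 for Nkx2-2, -2.27 for Isl1, -2.16 for Pax4 and -1.08 for Pax6. Against acinar cells 2 of the 12 were lower, Nkx2-2 (-1.42) and Runx1t1 (-1.20), and Myt1 was higher by 1.55, a share near the 22.3% of all genes called there.

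Markers of other cells moved with the null comparison. All 15 tested macrophage and leukocyte markers were called higher in null cells than in endocrine progenitors, with a median of 6.24, and 18.7% of all genes were called higher. Their mean level was 11.28 to 12.20 in the null arrays and 5.96 to 6.17 in endocrine progenitor arrays. The 16th marker, Itgam, did not pass the filter. Ptprc, which encodes the CD45 antigen that the study used to leave out leukocytes and is named here after its value was seen, had a mean of 10.66 in null cells and 3.48 in endocrine progenitors. Acinar markers were higher too, 8 of 10, with mean levels of 11.56 to 12.68 and 8.55 to 10.94. The part of either in the values of Neurog3, Neurod1 and Neurod2 was not tested.

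**Figure D4:**
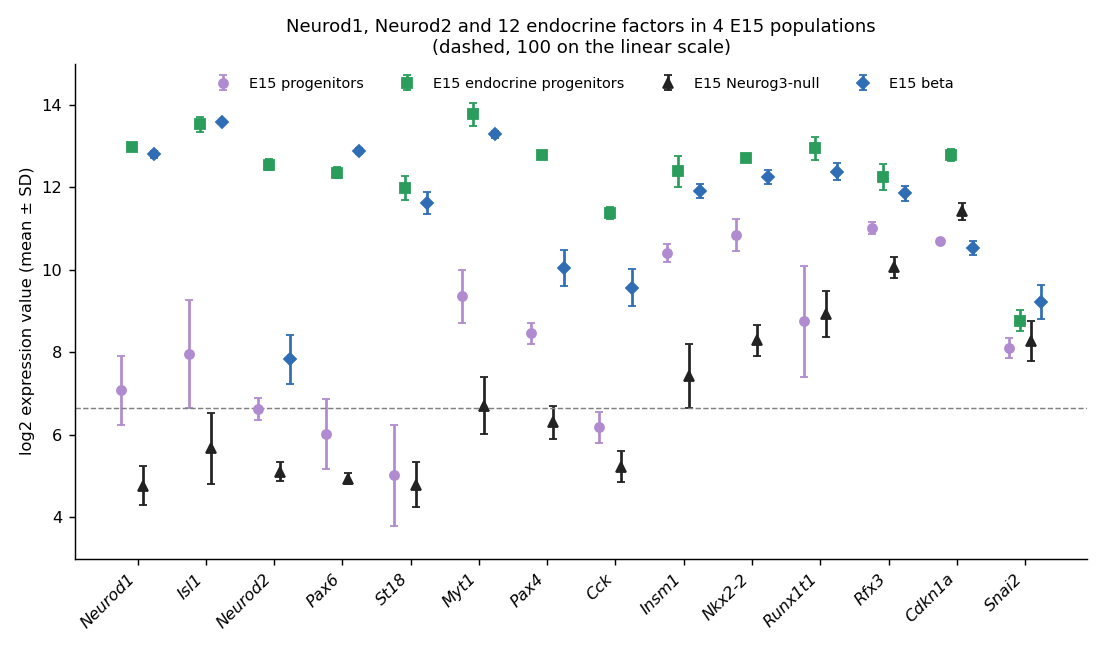
Mean log2 expression value ± SD of Neurod1, Neurod2 and 12 endocrine factors in E15 progenitors, endocrine progenitors, Neurog3-null cells and E15 beta cells, ordered by the difference between endocrine progenitors and null cells, with points to be compared within a gene. Endocrine progenitors lie above null cells by 1.37 or more for every gene but Snai2, and Neurod2 and Pax4 are lower in E15 beta cells than in endocrine progenitors.

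From endocrine progenitors to E15 beta cells, where Neurog3 (-2.24) and Neurod2 (-4.72) were lower and Neurod1 was not called, 2 of the 12 factors were lower and none was higher. These were Pax4 (-2.74) and Cdkn1a (-2.26), where 4.57% of all genes were called lower. Of 10 genes that Neurod1 is known to activate in islet cells, 4 were higher in E15 beta cells, against 6.69% of all genes. G6pc2 rose by 3.81, the glucose transporter gene Slc2a2 by 3.15, Ins2 by 2.09 and Sst by 1.82. The beta cells were sorted by an insulin promoter reporter, so a high insulin gene level there was selected for. The part of Neurod1, or of the mix of hormone-expressing cells, in these rises was not tested. In null cells 9 of the 10 genes were lower than in endocrine progenitors and Slc2a2 was higher, by 1.52. Of all genes, 14.2% were called lower there and 18.7% higher.

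Among other bHLH genes, Nhlh1, a neuronal factor, followed the 3 genes in endocrine progenitors. It rose by 5.58 from E15 progenitors, and its differences from endocrine progenitors were -6.15 to null cells and -4.23 to E15 beta cells. Ptf1a and Bhlha15, which act in acinar cells, did the opposite. They were lower in endocrine progenitors than in E15 progenitors (-3.33 and -2.06), and higher in null cells than in endocrine progenitors, by 3.07 and 3.20. Atoh8 and Ascl2 were also higher in null cells, by 1.08 and 1.80, and Atoh7 differed by -0.15. Of the 14 relatives with a probe of their own only these 6 passed the filter, and Neurog1, Neurog2, Neurod4 and Neurod6 were among the 8 that did not.

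None of the 3 E protein partners was called between E15 progenitors and endocrine progenitors (Tcf3 -0.71, Tcf12 -0.14, Tcf4 0.08). Tcf12 and Tcf4 differed by -0.41 and -0.42 from endocrine progenitors to null cells, neither called, and Tcf3 fell by 1.93. All 3 fell from P1 to P15 beta cells, with differences of -2.09 for Tcf3 and -1.10 for both Tcf4 and Tcf12, against 18.3% of all genes called lower. The 11 mesenchyme and 11 endothelium markers all fell in that comparison, and their part in the E protein values was not tested.

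Of the 10 Id, Hes and Hey genes, 6 were lower in endocrine progenitors than in E15 progenitors, against 11.8% of all genes, and 1 was higher. Hes1, the main Notch target that represses Neurog3, fell by 2.78. The differences were -2.20 for Id3, -1.98 for Heyl, -1.92 for Hey2, -1.64 for Id1 and -1.52 for Id2. Hes6, which counters Hes1, rose by 1.32. Hey1, Id4 and Hes5 differed by -0.63, -0.26 and 0.13. In null cells Hes6 and Hey1 were lower than in endocrine progenitors, at -1.03 and -1.29, Heyl was higher, by 2.02, and the other 7 were not called, a share near the 32.9% of all genes called there. From P1 to P15 beta cells 7 of the 10 fell, against 18.3% of all genes called lower, with the largest differences for Id3 (-4.16) and Hey1 (-3.79). All 11 mesenchyme and all 11 endothelium markers fell in the same comparison, and their part in these values was not tested.

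**Figure D5:**
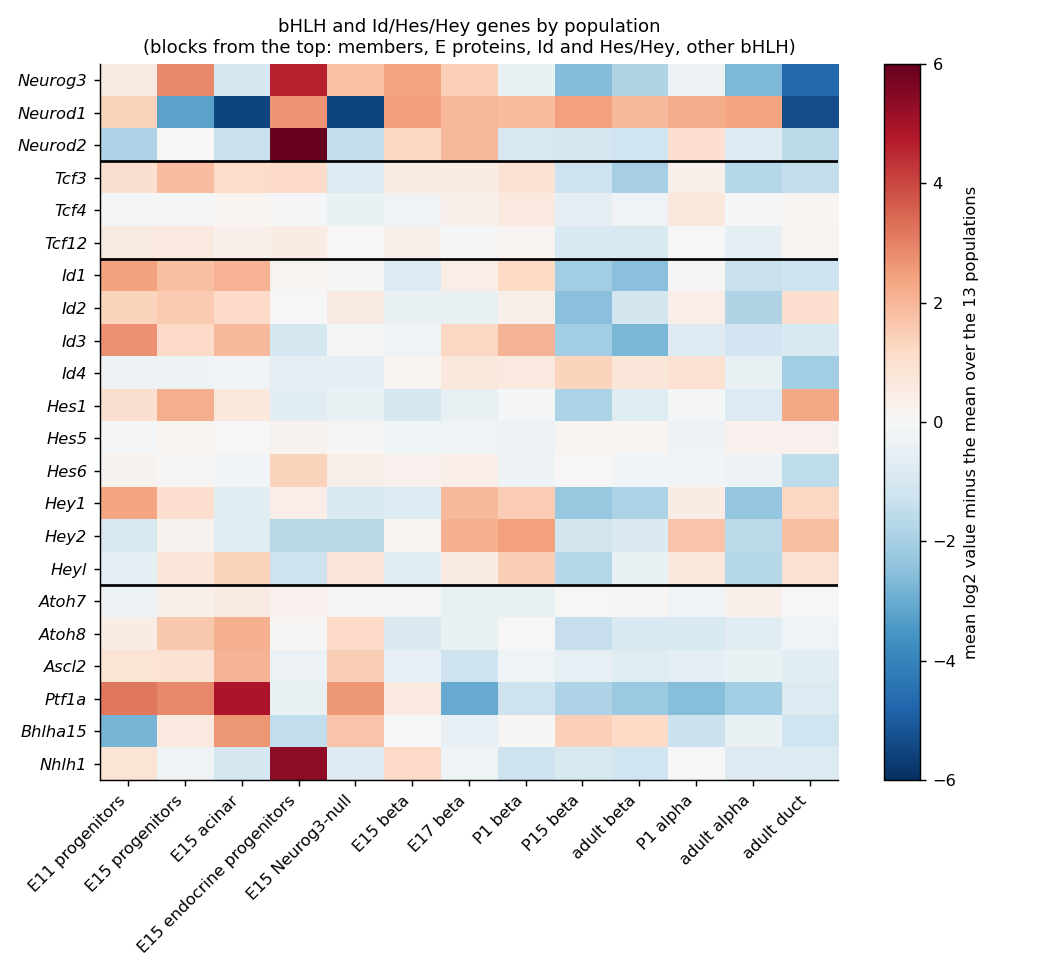
Mean log2 value of each gene in each population minus the gene's own mean over the 13 populations, as colour, for the 3 genes, the E proteins, the Id and Hes/Hey genes and the other bHLH genes that passed the filter. Nhlh1 shares with Neurod2 its highest mean in E15 endocrine progenitors, whereas Ptf1a and Bhlha15 are highest in E15 acinar cells.

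The factors that act above Neurog3 and the Notch genes moved in both directions. From E15 progenitors to endocrine progenitors 3 of 10 upstream factors were lower, Onecut1 (-3.20), Gata4 (-1.79) and Sox9 (-1.10), and Foxa2 was higher, by 1.27, where 11.8% of all genes were called lower and 10.7% higher. In the Notch list 4 of 11 were lower, the ligand Jag1 (-2.20) and the receptors Notch1 (-1.90), Notch3 (-1.88) and Notch2 (-1.55). Of the 3 that rose, the glycosyltransferase gene Mfng rose by 3.64 and the ligand gene Dll4 by 2.09. From endocrine progenitors to null cells the differences were -3.10 for Mfng, -2.36 for Dll4 and -1.73 for Dll1, and Notch1, Lfng and Jag1 rose by 1.64, 1.18 and 1.02.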

How the data were processed

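The authors amplified RNA of sorted cells with a NuGEN kit, hybridized it to Affymetrix whole-genome mouse arrays and normalized the arrays by RMA in R 2.11.1. The deposited values are log2 expression values of 45101 probes on 48 arrays, with no missing value. Array medians lay between 6.58 and 6.88, no array duplicated another, and depth does not apply to arrays, whose number limits the precision.

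Groups came from the sample titles and stage labels. Of the probes, 34958 name 1 gene, 932 several and 9211 none by the platform annotation; only the first were named. Symbols were checked by gene ID against RefSeq (34754 matched). Probes above 100 (linear) in at least 1 array were tested, 32078 in all. limma 3.58.1 in R 4.3.3 fitted 13 population means over the 48 arrays, with 35 residual degrees of freedom and 3.55 from the prior. The script was tested on simulated data with 200 changed probes. Gene lists were described by counts and medians over the brightest probe per gene. The 3 genes and the lists were chosen with earlier results of these data known. The text names, besides the 3 genes, the 6 genes most like each by Pearson's r, at most 6 called genes per other list and comparison by size, and every member of the lists of E proteins, Id and Hes/Hey genes, bHLH relatives and downstream factors where it is described.

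Alternatives were other probes, both other filters on dim probes, renewed quantile normalization, centring on array medians, array weights, only the populations compared, the methods' t-test, the replicate number as a block, and leaving out each array. The article speaks of biological replicates. It gives the number of pancreata for each endocrine progenitor replicate and the least number of male mice for each P15 and adult replicate. For the other populations it does not say how the tissue was divided among replicates. The p-values measure the spread between these arrays. Replicate numbers were checked for pairing by the correlation of same-numbered arrays' deviations from their group means: every pair was over 0.1 only for E11 against E15 progenitors (0.106 to 0.148).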

Additional observations from a re-analysis of the deposited data

Results flagged for a closer look

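In 24 sets of 4 or 5 arrays of 1 gene, 3 held an array far from the others by Dixon's test, where chance gives about 1 in 20. Neurod1 in E11 progenitors had its highest array, replicate 3, at 12.04, with the other arrays at 11.52 to 11.57. Neurod1 in adult alpha cells had its lowest array, replicate 2, at 12.25, with the others at 12.70 to 12.74. Neurod2 in adult alpha cells had its lowest array, replicate 4, at 5.36, with the others at 5.77 to 5.92.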

How the results depend on the processing

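Neither the filter without a limit on dim probes nor the replicate block changed a call for the 3 genes. With the block, Neurod1 differed by -4.66 from E11 to E15 progenitors. Same-numbered arrays of these 2 populations correlated only weakly (0.106 to 0.148), which does not show a pairing. Under the stricter filter of 24 arrays Neurod2 was not tested. The cause of the following changes was not tested. By the second probe Neurog3 gave -0.61 from acinar to null cells, -1.03 from E15 to E17 beta (called), -0.82, -0.28 and -0.17 for the next beta steps, -0.28 from P1 to adult alpha, -0.18 from P1 beta to P1 alpha, -0.01 and -0.02 from duct to beta and alpha, and 0.17 for alpha minus beta. By the t-test its E17 to P1 and P1 to P15 beta differences of -1.85 and -2.21 had adjusted p of 0.15 and 0.054. With array weights it gave 1.20 from P15 to adult beta (called), -0.12 from P1 beta to P1 alpha and -1.05 from adult beta to adult alpha (called). Neurod1 from acinar to null cells gave -0.004 after quantile normalization, -0.04 after centring, -0.19 with array weights and -0.26 by its second probe, which gave -0.29 for alpha minus beta. By its second probe Neurod2 gave -0.98 from E15 progenitors to null cells, -0.63, -0.59 and 0.13 for the E15 to E17, E17 to P1 and P15 to adult beta steps, -0.83 for fetal to postnatal beta, -0.99 from P1 to adult alpha, 0.80 from P1 beta to P1 alpha and -0.02 from adult beta to adult alpha. Its E17 to P1 beta difference of -2.90 was not called with only those populations (adjusted p = 0.16) or by the t-test (0.32). Its P1 to P15 beta difference was 0.08 after centring and 0.05 with array weights. Its alpha minus beta difference was called with array weights (-1.66) and with only those populations (-1.62). Leaving out 1 array gave Neurog3 -1.24 to -0.96 from E15 progenitors to null cells (-0.96, uncalled, without E15 progenitor replicate 3), -1.06 to -0.78 from E15 to E17 beta (-1.06, called, without E15 beta replicate 3), 0.55 to 1.19 from P15 to adult beta (1.19, called, without P15 replicate 1), -0.35 to 0.44 from P1 beta to P1 alpha, -1.16 to -0.75 from adult beta to adult alpha (-1.16 without alpha replicate 2), and -1.34 to -0.54 for alpha minus beta (-1.34 without P1 beta replicate 3). It gave Neurod1 -0.24 to 0.21 from acinar to null cells. It gave Neurod2 -1.64 to -1.38 from E15 progenitors to null cells (-1.38, uncalled, without E15 progenitor replicate 2), -0.68 to 1.76 from E15 to E17 beta, -3.95 to -1.51 from E17 to P1 beta, -0.26 to 0.25 from P1 to P15 beta and -1.90 to -1.39 for alpha minus beta. Counts of probes called from E17 to P1 beta were 1991, but 1218 without P1 beta replicate 2, 1044 under the stricter filter, 1228 with only those populations and 4 by the t-test. Other counts that moved by over 1.5 times did so under the stricter filter, which tests fewer probes, or by the t-test: 3143 became 1783 and 1830 from E15 to E17 beta, 2504 became 1500 and 1394 from P15 to adult beta, and under the filter 8187 became 5347 from P1 to P15 beta and 5538 became 3670 from adult beta to adult alpha.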
